A study of Mus musculus with 6 samples.

Results

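The genes examined were 9 regulators that pattern the Muellerian duct and the uterus, namely *Ihh*, *Lif*, *Emx2*, *Pax2*, *Pax8*, *Hand2*, *Msx1*, *Msx2* and *Foxa2*. They were chosen by symbol, through the transcript that each probe of the array is assigned to, and they were represented by 11 of the 55681 probes other than controls, or 9 of the 20284 gene symbols found. *Foxa2* and *Pax2* each had 2 probes. The rule used no measured value. RNA came from the uterus, the ovary and the liver of immature female mice of the outbred CD-1 stock, 24 days old. The mice had received fluorene-9-bisphenol (BHPF), a bisphenol used in plastics, at 50 mg per kg body weight per day by gavage for 3 days, or the vehicle peanut oil, which all groups received. Each of the 6 groups was 1 pool of 3 mice on 1 single-colour array, so a control and a BHPF array of a tissue can be compared only as 2 arrays, without a test, and the spread between animals was not measured. The study describes both postnatal day 21 and day 24 as the first day of dosing, and its question was whether BHPF opposes oestrogen in the uterus.

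In the embryo, *Pax2*, *Pax8* and *Emx2* encode transcription factors of the urogenital epithelium from which the Muellerian duct and then the uterus form. In the uterus, the epithelium secretes Indian hedgehog (*Ihh*), which acts on the stroma, where *Hand2* is expressed and limits growth signals that the stroma sends back to the epithelium. *Msx1* and *Msx2* encode homeodomain proteins that set the receptive state and the polarity of the epithelium, *Foxa2* is the transcription factor that uterine glands need, and leukaemia inhibitory factor (*Lif*) is the gland-derived cytokine needed for implantation.

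Between 61.3% and 74.5% of the probes were well above background on the 6 arrays. The spots of repeated probes had an SD of 0.10 to 0.12 on the log2 scale, which gives a ratio of 2 arrays a spot SD of 0.15. All arrays lay on 1 slide, with the control arrays in 1 column of positions and the BHPF arrays in the other, so treatment and the position on the slide cannot be told apart. In the authors' own value table the 2 uterus columns were exchanged relative to the scanner files, each matching the array of the other treatment within 0.001 log2 units in 99.1% of the probes. The scanner files were used under their own labels, and under the table's headings every uterine BHPF ratio given here has the opposite sign. Marker lists were highest in the tissue labelled for them, by summed level in units of the array's 75th percentile. The 9 smooth muscle markers summed to 97.5 and 103 in the uterus and at most 48.8 elsewhere, the 12 stromal markers to 119 and 124 and at most 63.6 elsewhere, and the 12 epithelial markers to 61.9 and 63.6 and at most 41.4 elsewhere. The 8 oocyte markers summed to 30.5 and 31.0 in the ovary and at most 0.699 elsewhere, and the 12 hepatocyte markers to 415 and 405 in the liver. Oviduct markers, of which 6 of 7 were well above background on each uterus array, summed to 14.5 in the control and 16.0 in the BHPF uterus. In the ovary they summed to 3.90 and 2.81. The sum is led by its brightest gene, *Tppp3*, at log2 levels of 3.15 and 3.50 in the uterus. *Tppp3*, *Ovgp1*, *Foxj1* and *Capsl* were higher in the uterus than in the ovary, and *Dynlrb2* and *Ccdc153* were lower. *Dnah5* was not well above background in the uterus. The part of oviduct in the differences between tissues was not tested. All 12 hepatocyte markers were at least 2-fold higher on the BHPF uterus array than on the control uterus array, with a summed level of 39.5 against 2.44. Over 263 liver-specific probes the excess on the BHPF uterus array was 0.97% of the control liver level, and 0.0135% on the BHPF ovary array. Of the 7 adipocyte markers, the summed level was 1.07 on the BHPF uterus array and 3.59 on the control uterus array.

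None of the 11 probes differed by 2-fold or more between the BHPF and the control uterus, against 2.65% of the 38802 probes evaluated there. A level is the log2 intensity minus the 75th percentile of its array. All 11 were well above background on both uterus arrays, and 10 of them were higher with BHPF, by between 0.02 and 0.68 on the log2 scale. *Lif* was the exception, at -0.56. The highest ratios were those of the 2 *Foxa2* probes, at 0.68 and 0.52, followed by *Pax8* at 0.39 and *Msx2* at 0.35. The median over the 11 probes was 0.20, and that over all probes evaluated was 0.01, with quartiles of -0.14 and 0.18. Of the 11 ratios, 6 lay within 2 spot SDs of no change, or 0.31. The spot SD holds no spread between arrays or pools. Among all probes evaluated, 18.6% changed by more than the 0.35 of *Msx2* and 33.4% by more than the 0.24 of *Msx1*.

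The direction of 5 of these 10 ratios depended on the scaling of the arrays. The 75th percentile was an intensity of 5335 on the control and 4530 on the BHPF uterus array, which adds 0.24 to every uterine log2 ratio. In unscaled intensity 5 of the 11 probes were higher with BHPF, both *Foxa2* probes, *Msx1*, *Msx2* and *Pax8*. The median was -0.036, against -0.21 over all probes. Scaling shifts the members and the other probes alike, so it leaves the gap between these medians nearly unchanged and cannot test it. When the liver-specific excess was subtracted from the BHPF uterus array, the *Foxa2* ratios went from 0.68 to 0.66 and from 0.52 to 0.46 and the higher *Pax2* ratio from 0.20 to 0.14, and none of the other ratios moved by more than 0.02.

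**Figure D1:**
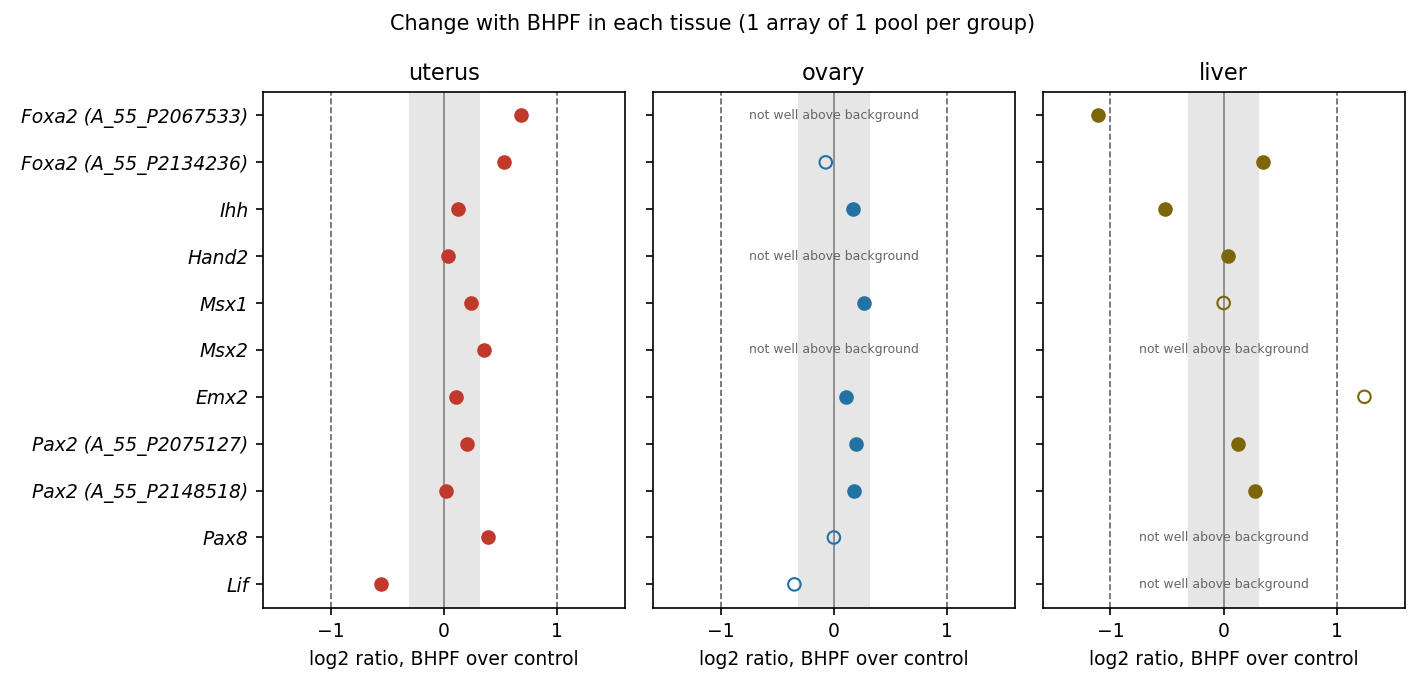
Log2 ratio of the BHPF over the control array for each probe (rows) in uterus, ovary and liver (panels), with filled points for probes well above background on both arrays, open points for bounds, dashed lines at 2-fold and a grey band of 2 spot SDs (0.31). No uterine or ovarian point passes a dashed line, and in the liver 1 *Foxa2* probe (-1.11) and *Emx2* (1.24, a bound) do.

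Between tissues the differences were far larger. The tissues were compared over 2 pools each with limma, with treatment as a covariate and adjustment over 43892 probes. With 1 pool per tissue and treatment, the residual spread is how far the BHPF ratios differ between tissues, drawn towards that of all probes. No pool was replicated, so the spread between pools cannot be separated there from a BHPF effect that differs between tissues. Whether the tissues came from the same mice is not stated. Against the ovary, 6 of the 11 probes were higher in the uterus (*Hand2*, *Msx1*, *Msx2*, *Pax8* and both of *Foxa2*) and 1 was lower (*Ihh*), beside 12.4% and 11.1% of all probes tested. Against the liver, 7 were higher (*Msx1*, *Msx2*, *Pax8*, *Emx2*, *Lif*, *Hand2* and *Ihh*) and 3 were lower (both of *Foxa2* and 1 of *Pax2*), beside 27.6% and 25% of all probes tested. In bulk tissue, fewer cells that express a gene and less of its RNA per cell cannot be told apart. *Msx1*, *Msx2* and *Pax8* passed against both tissues, and *Hand2* against the ovary, in every setting that could be fitted, including the omission of each array in turn.

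**Figure D2:**
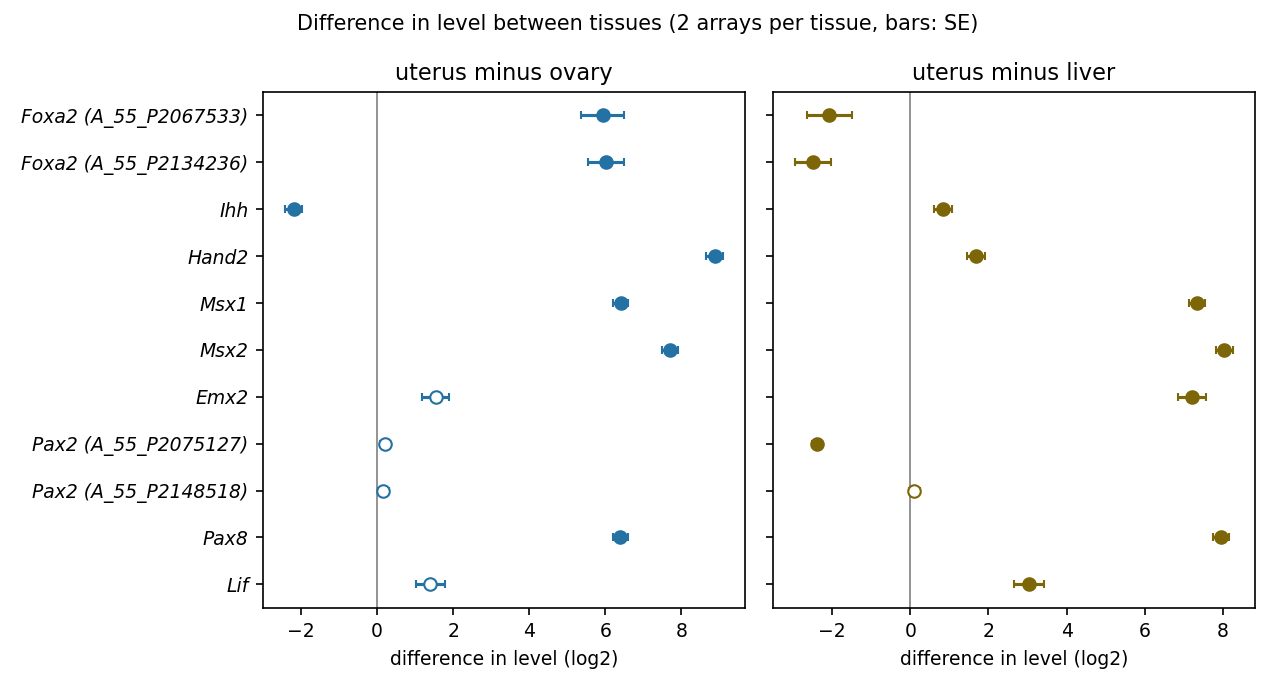
Difference in level (log2) between the uterus and the ovary (left) and between the uterus and the liver (right) for each probe, with the standard error of the limma fit over 2 arrays per tissue and filled points where the adjusted p was below 0.05. *Hand2*, *Msx1*, *Msx2* and *Pax8* lie at 6.39 or more above the ovary, and for probes not well above background in the other tissue the plotted difference uses their own dim values.

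*Msx1*, *Msx2*, *Hand2* and *Pax8* set the uterus apart from the ovary most clearly, so the sequence upstream of their start sites is shown. These are the 250 bases before the annotated start from RefSeq (GRCm38.p6), 5′ to 3′ in the direction of the gene. Capitals mark matches on either strand to 5 motifs. These were the oestrogen response element (GGTCA, 3 bases of any kind and TGACC), its half-site GGTCA, the homeodomain motif TAATTG, the GC box GGGCGG and the TATA motif TATAAA. A full oestrogen response element also holds the half-site. The *Msx1* window is chr5:37824586-37824835, minus strand. The *Msx2* window is chr13:53472781-53473030, minus strand. The *Hand2* window is chr8:57320733-57320982, plus strand. The *Pax8* window is chr2:24475600-24475849, minus strand.
Msx1: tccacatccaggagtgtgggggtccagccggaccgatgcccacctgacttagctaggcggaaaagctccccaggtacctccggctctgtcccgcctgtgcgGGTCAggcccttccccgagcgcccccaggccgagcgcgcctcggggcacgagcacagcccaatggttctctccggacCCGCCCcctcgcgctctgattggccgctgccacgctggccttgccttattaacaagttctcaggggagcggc
Msx2: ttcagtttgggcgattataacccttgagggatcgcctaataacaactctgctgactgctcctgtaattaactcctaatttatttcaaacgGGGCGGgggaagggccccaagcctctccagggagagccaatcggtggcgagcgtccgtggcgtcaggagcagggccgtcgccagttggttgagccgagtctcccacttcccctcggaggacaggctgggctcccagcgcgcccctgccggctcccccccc
Hand2: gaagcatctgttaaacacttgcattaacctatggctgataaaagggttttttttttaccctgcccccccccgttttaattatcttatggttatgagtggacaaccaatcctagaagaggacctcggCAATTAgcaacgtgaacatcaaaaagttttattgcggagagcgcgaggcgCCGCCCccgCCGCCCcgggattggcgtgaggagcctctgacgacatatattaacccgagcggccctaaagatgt
Pax8: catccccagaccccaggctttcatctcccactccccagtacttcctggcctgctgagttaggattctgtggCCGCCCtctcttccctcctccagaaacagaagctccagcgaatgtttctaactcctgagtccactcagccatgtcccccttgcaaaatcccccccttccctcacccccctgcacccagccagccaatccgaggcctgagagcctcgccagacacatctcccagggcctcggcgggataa

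The *Msx1* window held 1 half-site and 1 GC box. *Msx2* held 1 GC box, *Hand2* 2 GC boxes and the homeodomain motif that Msx proteins among others bind, and *Pax8* 1 GC box. None of the 13 windows of the 9 genes held the full oestrogen response element, which 0.0639% of all 32851 windows of that length contained. The half-site was in the *Msx1* window alone, and in 35.2% of all windows. The homeodomain motif was in the *Hand2* window alone, and in 7.17% of all windows. Of the 7 members with 1 window, all but *Lif* held a GC box. *Foxa2* and *Pax2* had 3 windows each, of which only the first held none. Counted by window, 32.7% of all windows held one. TATAAA occurred for 1 of 3 *Foxa2* starts and in 12.4% of all windows. The windows were 49.2% to 72.8% GC, against a median of 52.4%. These matches are letters in a short window and not binding sites.

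*Msx1* was bright in the uterus, with a level of 2.07 in the control and 2.31 in the BHPF pool. In the ovary the levels were -4.35 and -4.09, and in the liver -5.02 in the control, with the BHPF array not well above background. The uterine arrays were thus far above the other 4, with no overlap. The difference was 6.41 (SE 0.19, limma adjusted p = 0.0018), or 84.9-fold, against the ovary, and, with 1 of 2 liver arrays well above background, the uterus was at least 142-fold above the liver (fitted difference 7.34 from its own values, SE 0.19, limma adjusted p = 0.00070). The BHPF ratios were 0.24 in the uterus and 0.26 in the ovary. The uterine intensities themselves were 22421 and 22456, so the uterine ratio equals the scaling.

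*Msx2*, the partner of *Msx1* in the uterine epithelium, was well above background in the uterus alone. Its level was 0.43 in the control and 0.78 in the BHPF uterus, a ratio of 0.35, and its unscaled intensities were 7168 and 7774. On the other 4 arrays the intensities lay between 15.8 and 55.6, below the background limit of each. The uterus was at least 99.5-fold higher than the ovary (fitted difference 7.70 from its own values, SE 0.22, limma adjusted p = 0.0018). It was at least 58.4-fold higher than the liver (fitted difference 8.04 from its own values, SE 0.22, limma adjusted p = 0.00070). A bound takes the mean of the uterus arrays over the lowest signal well above background on the other arrays. The p values belong to the fitted differences, and no bound was tested.

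*Hand2*, a basic helix-loop-helix factor of the stroma, had nearly the same level in both uterus pools, 0.62 and 0.65. Neither ovary array was well above background, and its levels in the liver were -1.07 and -1.02. The order was uterus, liver and ovary, with no overlap. The uterus was at least 102-fold above the ovary (fitted difference 8.88 from its own values, SE 0.22, limma adjusted p = 0.0018). It was 3.20-fold above the liver (difference 1.68, SE 0.22, limma adjusted p = 0.0067). The call against the liver was lost without the control uterus. The BHPF ratios were 0.03 in the uterus and 0.04 in the liver, well inside the spot noise, and the uterine one was -0.04 when the arrays were scaled to the 50th percentile.

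*Pax8* had levels of 0.30 in the control and 0.69 in the BHPF uterus. In the ovary only the control array was well above background, barely, at -6.06, and neither liver array was. The uterus was at least 83.9-fold above the ovary (fitted difference 6.39, SE 0.20, limma adjusted p = 0.0018). It was at least 54.2-fold above the liver (fitted difference 7.96 from its own values, SE 0.20, limma adjusted p = 0.00070). The uterine BHPF ratio was 0.39, past the 0.31 of the spot noise, and 0.15 before scaling. A larger change was seen in 15.8% of all probes evaluated in the uterus. The own values of *Pax8* were higher with BHPF in all 3 tissues, though dim in 2 of them. With tissue as a block the effect common to the 3 tissues was 0.54 (SE 0.17, limma adjusted p = 0.77).

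*Pax2*, the other paired-box gene of the duct, gave a dim and uneven signal. Probe A_55_P2075127 had levels of -3.85 and -3.65 in the control and BHPF uterus, -4.05 and -3.86 in the ovary, and -1.44 and -1.31 in the liver. Probe A_55_P2148518 had levels of -3.84 and -3.83 in the uterus, -4.09 and -3.91 in the ovary, and -4.08 and -3.81 in the liver. The probes thus agreed in uterus and ovary and disagreed in the liver, where the first was 5.21-fold above the uterus (limma adjusted p = 0.0010) and the second was not different (difference of the uterus from the liver 0.11, SE 0.14, limma adjusted p = 0.55). Neither separated uterus from ovary, with differences of 0.20 (SE 0.13, limma adjusted p = 0.30) and 0.17 (SE 0.14, limma adjusted p = 0.43). The 6 BHPF ratios of the 2 probes ran from 0.02 to 0.27, all within the spot noise.

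*Emx2*, a homeobox gene of the duct and later of the uterine epithelium and stroma, was high in both reproductive tissues. Its levels were 2.21 and 2.31 in the control and BHPF uterus and 0.66 and 0.76 in the ovary. In the liver it was not well above background in the control and at -4.33 in the BHPF pool. With 1 of 2 liver arrays well above background, the uterus was at least 148-fold above the liver (fitted difference 7.21, SE 0.35, limma adjusted p = 0.00091). The uterus exceeded the ovary by 1.55 (SE 0.35), with no overlap of the arrays, but the limma adjusted p was 0.052. Over 16 settings this difference ran from 1.27 to 1.84 and passed in only 9. Among those were the fits with either liver array left out. The 50th percentile, quantile and normexp settings also passed (limma adjusted p = 0.025, 0.014 and 0.0020). The BHPF ratio was 0.10 in uterus and in ovary.

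*Ihh*, the epithelial ligand, was highest in the ovary. Its levels were 0.20 and 0.37 in the control and BHPF ovary, -1.96 and -1.84 in the uterus, and -2.49 and -3.01 in the liver, and no arrays of different tissues overlapped. The uterus was 4.55-fold below the ovary (difference -2.19, SE 0.23, limma adjusted p = 0.0093) and 1.80-fold above the liver (difference 0.85, SE 0.23, limma adjusted p = 0.043). Both calls depended on single arrays. The first was lost without the control ovary (0.057), the BHPF ovary (0.072), the BHPF uterus (0.082) or the control uterus (0.090). The second was lost without either ovary array (0.078), the BHPF liver (0.089), the control uterus (0.13) or the BHPF uterus (0.22), and with scaling to the 50th percentile (0.30) or quantiles (0.22). The BHPF ratio was 0.12 in the uterus and 0.17 in the ovary, both inside the spot noise, and -0.52 in the liver.

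*Lif*, the implantation cytokine, was the only member with a lower scaled level on the BHPF than on the control uterus array. Its uterine intensity was 332 in the control and 191 with BHPF, where the lowest signals well above background were 95.6 and 135. The levels were -4.01 and -4.57, or 1.47-fold lower with BHPF. In the ovary the level was -5.39 in the control and not well above background with BHPF, and the liver arrays were not well above background. Only 2.96% of all probes evaluated in the uterus had a lower ratio, and 7.64% had a change as large in either direction, while without scaling the *Lif* ratio was -0.79. The ovarian ratio had the same sign, at least 1.27-fold lower. The uterus was at least 1.97-fold above the liver (fitted difference 3.03 from its own values, SE 0.38, limma adjusted p = 0.0060). This call was lost without the control uterus. The uterus was at least 2.42-fold above the ovary, where 1 of 2 arrays was well above background. There the fitted difference was 1.41 from its own values (SE 0.38, limma adjusted p = 0.072). That difference passed in only 6 of 14 settings, among them normexp (limma adjusted p = 0.0088) and the fits without either liver array.

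*Foxa2*, the gland factor, is also a transcription factor of the liver, and its levels were highest there. Probe A_55_P2134236 had levels of 2.11 and 2.46 in the control and BHPF liver, -0.47 and 0.05 in the uterus, and -5.67 in the control ovary, with the BHPF ovary not well above background. Probe A_55_P2067533 had levels of 0.36 and -0.75 in the liver and -2.61 and -1.93 in the uterus, and was not well above background in the ovary. For both probes the liver lay above the uterus and the uterus above the ovary, without overlap. The difference of the uterus from the liver was -2.49 (SE 0.47, limma adjusted p = 0.017) for A_55_P2134236 and -2.07 (SE 0.57, limma adjusted p = 0.044) for A_55_P2067533. With 1 of 2 ovary arrays well above background, the uterus was at least 45.1-fold above the ovary for the first probe. Its fitted difference was 6.01 from its own values (SE 0.47, limma adjusted p = 0.0051). For the second the uterus was above by at least 13.6-fold (fitted difference 5.93 from its own values, SE 0.57, limma adjusted p = 0.0077).

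The *Foxa2* calls depended on single arrays. Without the control uterus, the adjusted p in limma was 0.11 and 0.23 against the liver and 0.054 and 0.071 against the ovary. Without the BHPF uterus, it was 0.064 and 0.13 against the liver and 0.064 and 0.087 against the ovary. The liver difference of A_55_P2134236 was also lost without the BHPF liver (0.066), and those of the other probe without the control ovary (0.051 against the ovary) and without either ovary array (0.058 against the liver). The latter was also lost with the percentile taken over probes above background on all 6 arrays (0.071) and with no filter (0.057). The uterine BHPF ratios of 0.52 and 0.68 were past the spot noise in both probes, and 0.29 and 0.44 before scaling. Of all probes evaluated in the uterus, 8.80% and 5.17% had a change at least as large. The hepatocyte markers, too, were higher on the BHPF than on the control uterus array. The liver-specific excess times the *Foxa2* level in the BHPF liver came to 5.13% and 2.19% of the *Foxa2* signal on the BHPF uterus array.

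**Figure D3:**
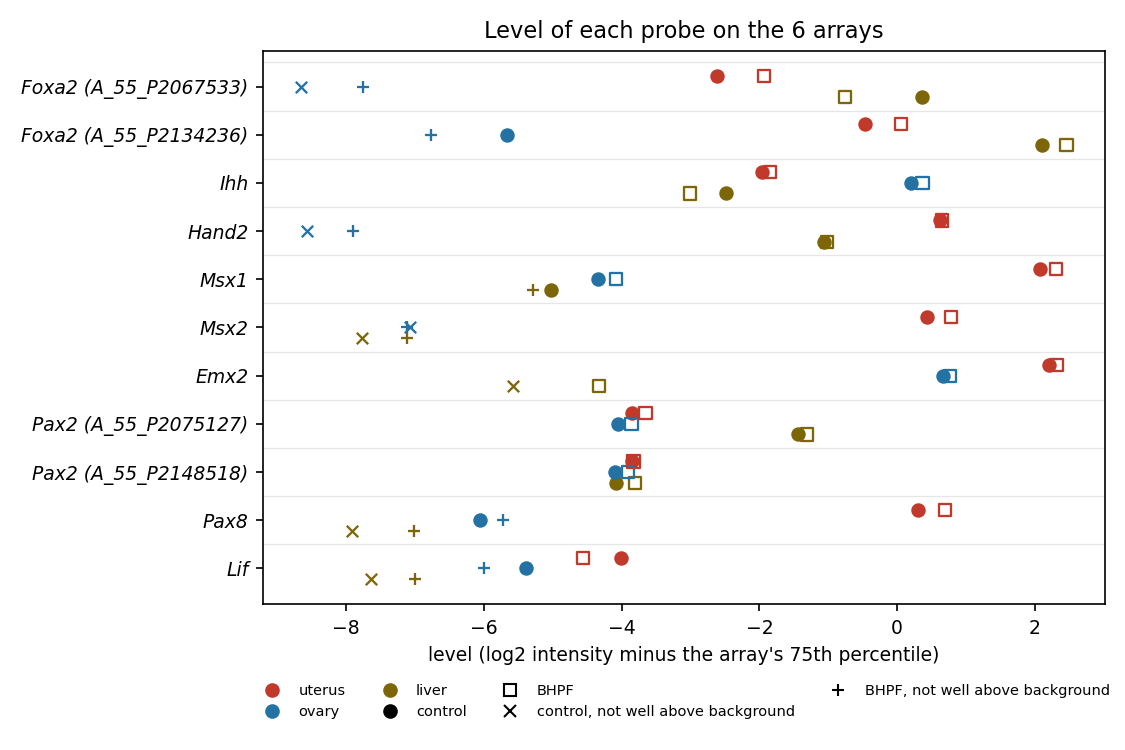
Level of each probe (log2 intensity minus the 75th percentile of the array) on the 6 arrays, with uterus in red, ovary in blue and liver in brown, control filled, BHPF open, and crosses for arrays on which the probe was not well above background. The 2 uterus points of *Msx1*, *Msx2* and *Pax8* lie more than 6 log2 units to the right of those of the other tissues. Control and BHPF points of a probe lie at most 0.68 apart in the uterus. In the liver, *Emx2* differs by 1.24 and 1 *Foxa2* probe by -1.11, and in the ovary the other *Foxa2* probe differs by -1.105.

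The ovary gave 8 probes that could be evaluated, 5 higher and 2 lower with BHPF, and none reached 2-fold, against 1.27% of the 41674 probes evaluated. Their median was 0.13, with 0.00 over all probes, and 7 of the 8 ratios lay within the spot noise. Among all probes evaluated there, 13.2% changed by more than *Lif*, which lay outside it. Before scaling, which adds 0.23 here, 2 of the 8 were above 0 and the median was -0.058. The ratios of *Ihh*, *Msx1*, *Emx2* and both *Pax2* probes were 0.10 to 0.26. *Foxa2* A_55_P2134236 was at least 1.05-fold lower, and its own values, of which the BHPF one is below the background limit, differed by -1.11.

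In the liver, 8 probes could be evaluated and 2 passed 2-fold, 1 higher and 1 lower with BHPF, against 7.09% of the 36578 probes evaluated, 6.02% higher and 1.07% lower. *Foxa2* A_55_P2067533 was 2.16-fold lower with BHPF (log2 ratio -1.11), whereas the other, brighter *Foxa2* probe was higher by 0.35. *Emx2* was at least 2.37-fold higher, from an intensity of 72.3 that was not well above background to 164, and this ratio was 0.93, 0.79 and 0.67 on the log2 scale with the 50th percentile, quantile normalisation and normexp, short of 2-fold. The median of the 8 was 0.08, with 0.06 over all probes.

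Across the 3 tissues, limma with tissue as a block found 0 of the 11 probes with a common BHPF effect at an adjusted p below 0.05, as it found 0 of all 43892. At an unadjusted p below 0.05 there was 1 member, *Pax8*, against 5.23% of all probes. The common effects ran from -0.17 for *Lif* (SE 0.31) to 0.54 for *Pax8*. Both fits took in liver signals too dim for the comparison within that tissue. Their own values there gave ratios of 0.64 for *Lif* and 0.91 for *Pax8*, against -0.56 and 0.39 in the uterus. In the ovary the own values gave -0.61 and 0.33, with a dim BHPF signal for each.

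Genes of the surrounding pathways were taken in 7 lists of 136 genes, the members left out, of which 126 could be evaluated in the uterus. None of the 126 differed by 2-fold, against 3.09% of the 16160 genes evaluated. Of the 126, 83 were higher and 42 lower with BHPF, and the median was 0.06 against 0.00 over all genes. Scaling adds 0.24 to these ratios too, so the counts of higher and lower genes here and below depend on it. The list medians lay between -0.03 for the hedgehog pathway and 0.12 for the bone morphogenetic protein axis, all smaller than that shift. In the ovary *Dlx6* was higher by 1.59 and *Hoxa9* lower, at -1.03 with 1 of its 2 probes at a bound, among 125 genes evaluated (1.09% of all genes called). In the liver *Egr1*, *Gata3*, *Lef1* and *Dlx6* were higher, at 1.97, 1.31, 1.19 and 1.17, the latter pair as bounds, among 110 genes evaluated (4.74% of all genes called).

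**Figure D4:**
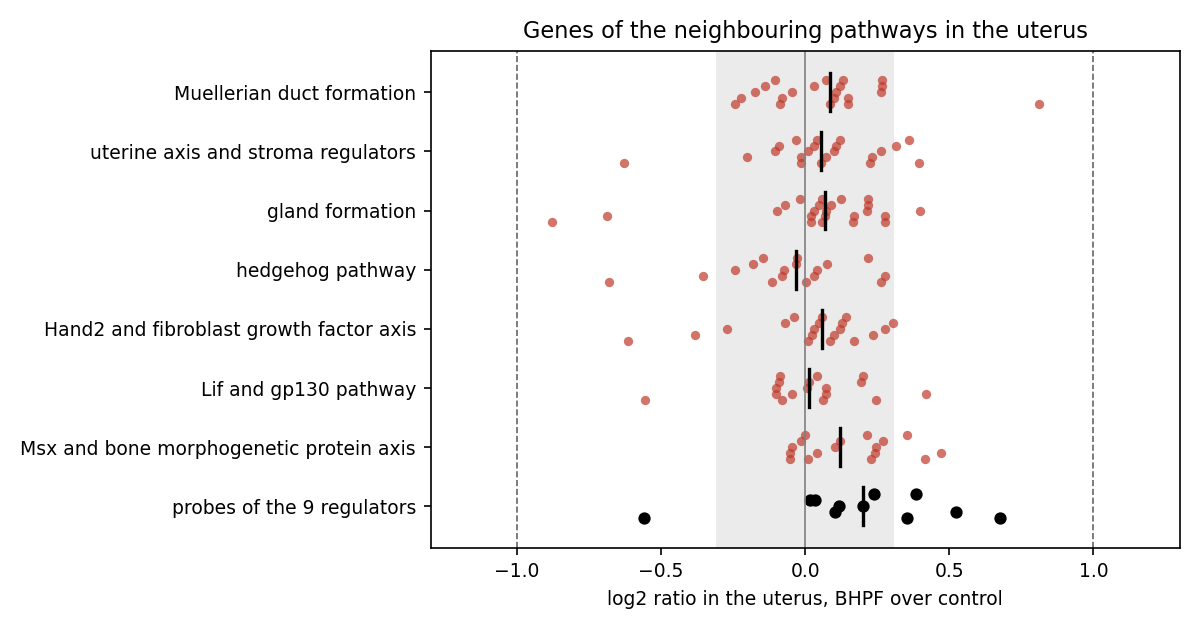
Log2 ratio of the BHPF over the control uterus for each gene of the 7 pathway lists (red points, probes averaged, vertical bar at the list median) and for the 11 probes of the 9 regulators (black), with dashed lines at 2-fold and a grey band of 2 spot SDs. All points lie inside the dashed lines, and most lie inside the band.

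Among 21 genes of Muellerian duct formation, all evaluated, 13 were higher and 8 lower in the BHPF uterus. *Wnt9b*, the signal that the Muellerian duct needs for its growth, and *Fgf8* were each at 0.27. *Wnt4*, needed for the duct to form, was at 0.07, and *Lhx1*, the duct's early marker, at -0.10.

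Of 22 regulators of the uterine axis and stroma, 14 were higher and 7 lower. *Trp63*, a gene of stratified epithelium, was at -0.63, but its 2 probes were at -1.29 and 0.03. *Osr2* was at 0.39 and *Dlx5* at 0.36. *Hoxa10*, which gives the uterus its place along the duct, was at 0.05. *Wnt5a*, a stromal signal that lies downstream of *Msx1* and *Msx2* in the uterus, was at -0.02.

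Of 23 genes of gland formation, 18 were higher and 5 lower after scaling, with a median of 0.07, below the 0.24 that scaling adds. *Sox17*, an epithelial factor upstream of gland formation and of *Ihh*, was at 0.09 and *Cxcl15*, a secreted gland product, at 0.12. *Prlr*, the prolactin receptor, was at -0.69 with 1 of its 2 probes at a bound, *Lef1* at 0.40 and *Fgf10* at 0.28. The ratios of *Sox17* and *Cxcl15* lay inside the spot noise, and those of both *Foxa2* probes outside it.

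The hedgehog pathway downstream of *Ihh* had 7 of its 17 evaluated genes higher and 10 lower. *Ptch1*, the receptor and a target, was at 0.28, *Gli1*, a target transcription factor, at 0.26, and *Nr2f2*, the stromal mediator, at -0.03. *Hhip*, a decoy for hedgehog ligands, was at -0.68, and *Dhh*, another ligand, at -0.35.

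In the list of *Hand2* and the fibroblast growth factor axis that it limits, which also holds receptors and feedback inhibitors, 14 genes were higher and 5 lower. *Fgf9* and *Fgf18* were at 0.31 and 0.23, *Fgf1* at -0.62 with 1 of its 2 probes at a bound, and *Twist1*, a related basic helix-loop-helix gene, at -0.38. In the Lif and gp130 list, 10 were higher and 7 lower, with the receptor *Lifr* at 0.24, its partner *Il6st* at -0.08 and the effector *Stat3* at 0.07. *Il11*, a cytokine that signals through the same partner, was at -0.55, next to *Lif* at -0.56, and *Cntfr* was at 0.42. Of the 17 evaluated genes of the bone morphogenetic protein axis, which acts with Msx proteins, 12 were higher and 4 lower, with *Bmp2* at 0.47, *Smad9* at 0.42 and *Bmp7* at 0.35.

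For each member, the genes most like it over the 6 arrays were those with the smallest root mean square difference of centred levels, among genes well above background on the same arrays. *Pax8* was closest to *Rasef* (0.23) and *Hoxa10* (0.43), *Msx1* to *St14* (0.39) and *Msx2* to *Lpar3* (0.53) and *Rxfp1* (0.61). *Foxa2* was closest to *Sult1c2* (0.39), *Hand2* to *Tmprss2* (0.35), *Lif* to *Cdrt4* (0.24) and *Ihh* to *Cenps* (0.13). *Emx2* was closest to *Adam5* at 0.80, and *Pax2*, with its probes averaged, lay at 0.04 from *Ndufb10*. The genes available for comparison differed in number, with 46 for *Hand2*, 74 for *Emx2* and 13717 for *Ihh* and *Pax2*. The distances can therefore not be ranked between members.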

How the data were processed

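RNA pools of 3 mice from uterus, ovary and liver were labelled with Cy3 and hybridised to Agilent arrays. The authors deposited scanner files with the intensity of each spot, background-subtracted by Feature Extraction (version 9.1 in the submitters' notes, 11.5.1.1 in the file headers), and flags for spots well above background. The log2 values that the authors deposited besides these came from GeneSpring after a percentile shift and served as an alternative.

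Spots flagged as outliers were not used, log2 intensity was averaged over the spots of a probe, and the 75th percentile of all probes was subtracted within each array. Symbols came from the RefSeq table of GRCm38.p6, through which 26762 probes were named. A probe entered the comparison of a tissue if either of the 2 arrays was well above background there, and a call was made at 2-fold. With 1 such array its ratio is a bound against the lowest signal well above background on the other array. The probe's own signal there replaced that limit if it was higher. With 1 array per group no test was made within a tissue. Tissues, and an effect common to them, were tested with limma 3.58.1 in R 4.3.3 on the 6 arrays, over probes well above background on any of them, with terms for tissue and treatment and Benjamini-Hochberg adjustment, two-sided, at 0.05. The script was tested on simulated data.

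All members were named, and from each pathway list the 3 genes with the largest uterine ratio among those well above background on both uterus arrays, together with direct partners of the members. A gene that this rule selects is not reported here. The members and lists were chosen with earlier results of these data known. Alternatives covered the scaling, normexp (offset 50, on the median signal), the filter, the bound, the value table, the model and the omission of each array. Scaling to none, exchange of the table's uterus columns and subtraction of the liver-specific excess were added after the data had been seen. The number of arrays limits the precision.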

Additional observations from a re-analysis of the deposited data

Results flagged for a closer look

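*Foxa2* probe A_55_P2067533 differed in opposite directions with BHPF in the uterus (log2 ratio 0.68) and in the liver (-1.11), on 1 pair of arrays each, and this difference was not tested. The other *Foxa2* probe was higher in both tissues, at 0.52 and 0.35.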

How the results depend on the processing

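The median uterine ratio of the member probes was -0.20 from the authors' table as headed, 0.20 with its uterus columns exchanged, and -0.036 without scaling, where the ovarian median was -0.058. The liver median was -0.20 with the 50th percentile and 0.27 with no filter on dim probes. The count of ovarian probes past 2-fold became 1 in the authors' table, with own values in place of bounds, and with no filter. The liver count of 2 became 0 at a threshold of 4-fold and with quantile normalisation, and 1 with the 50th percentile, with normexp, and with both arrays required above background. The count of pathway genes past 2-fold in the uterus became 1 with both arrays required above background, 2 with no filter and 1 without scaling. Requiring all 6 arrays above background left 3 member probes, and the counts became 0 higher in uterus than ovary, 1 higher than liver and 1 lower than liver. In the authors' table, with 6 member probes tested, the counts were 3 higher than ovary and 3 higher than liver, as headed and exchanged. Leaving out each array in turn gave 4 to 8 higher than ovary (8 without either liver array, 4 without either uterus array), 0 to 1 lower than ovary (0 without either ovary or either uterus array), 4 to 7 higher than liver (4 without the control uterus) and 1 to 3 lower than liver (1 without either uterus array). In these fits a tissue left with 1 array was assumed to vary like the others. The causes of the changes that do not follow from fewer probes or arrays were not tested. No difference between tissues that passed the threshold changed sign in any setting. The 0 probes with a common BHPF effect stayed 0 in the settings run. No paired analysis was possible because each group had 1 array and the labels number no replicates. The common BHPF effect was fitted with tissue as a block. Probes near the background limit, *Lif*, *Pax2* and liver *Emx2*, carry the least precise ratios.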
